A study of Mus musculus with 4 samples.

Results

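The endoderm lineage was represented by 8 genes, taken by RefSeq identifier from the 33226 transcript names of a mouse Agilent array: Foxa2 (NM_010446), Foxa1 (NM_008259), Sox17 (NM_011441), Cer1 (NM_009887), Hnf4a (NM_008261), Afp (NM_007423), Ttr (NM_013697) and Apoa1 (NM_009692). All 8 were present, on 10 of the 39428 probes, because Foxa2 and Sox17 had 2 probes each. RNA came from 4 sorted populations of differentiating mouse embryonic stem cells, with 1 array for each and no replicates, so no difference between populations could be tested. Flk1+ MPCs were the mesodermal precursors sorted at day 4.5 of culture without leukemia inhibitory factor. PCBs, PDGFRα+Flk1- cardioblasts, were sorted at day 5.5 after exposure to CsAYTE, a mixture of Cyclosporin A, Trolox (an antioxidant), Y27632 (which inhibits ROCK) and EW7197 (which inhibits the TGF-β receptor ALK5). sfPCBs were PCBs formed spontaneously by the same day without CsAYTE, with DMSO as vehicle. M+CMs were the cells positive for αMHC, the cardiac myosin heavy chain, at day 10.5, and their label does not say whether CsAYTE was given. The study describes M+CMs as cardiomyocytes derived from PCBs, marked by GFP driven by the αMHC promoter. In it, Flk1+ MPCs are replated on OP9 cells, a mouse stromal feeder layer, to obtain the later populations.

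Endoderm forms at the primitive streak beside mesoderm, from progenitors that respond to Nodal signalling. Foxa2 and Foxa1 are forkhead pioneer factors that open chromatin at endodermal genes. Sox17 is an HMG-box factor of early endoderm and also of endothelium. Cer1 is a secreted antagonist of Nodal and BMP from the anterior endoderm. Hnf4a is a nuclear receptor of visceral endoderm and liver. Its textbook targets include the serum proteins of yolk sac and liver, among them Ttr, which carries thyroxine, and Apoa1, the main protein of high density lipoprotein. Afp encodes alpha-fetoprotein, the fetal relative of albumin.

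The genes differed in profile. Foxa2, Sox17 and Cer1 were high in Flk1+ MPCs, lower in sfPCBs, and lower again in PCBs. Foxa1 and Afp were higher in both day 5.5 populations than in Flk1+ MPCs and were below the detection limit in M+CMs. Hnf4a was detected at low signals in all populations but M+CMs, and Ttr and Apoa1 were at or near background in every population. Values are software signals with the background subtracted, scaled so that the 75th percentile of each array equalled 2198, and levels of different probes are not comparable. A probe was taken as detected on an array where the software placed 0.5 or more of its spots well above background. The lowest detected scaled signal was between 15.1 and 15.9 on the 4 arrays, and a fold against an undetected signal is a lower bound, written as at least, computed against the higher of that floor and the signal itself. The error of a log2 ratio comes from the error the software gives each spot and leaves out any difference between cultures.

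**Figure D1:**
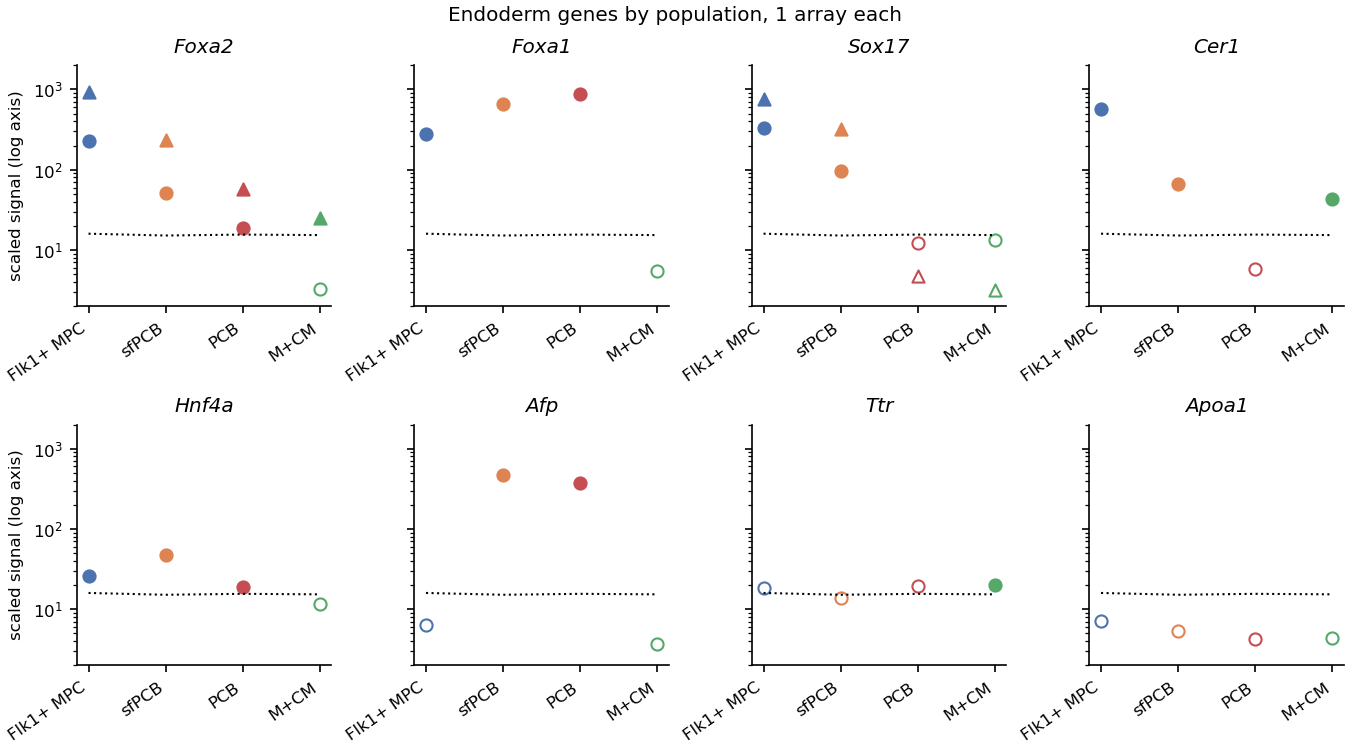
Scaled signal (log axis) of the 8 genes in the 4 populations, 1 array each. Circles and triangles are different probes of a gene, filled symbols are detected and open ones are not, and the dotted line is the lowest detected signal of each array; Foxa2, Sox17 and Cer1 are highest in Flk1+ MPCs, Foxa1 and Afp in the day 5.5 populations.

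Sorting markers followed the labels in part, since the Kdr probes disagreed and Pdgfra was lower in sfPCBs than in Flk1+ MPCs. The Kdr (Flk1) probe A_51_P316553 read 54864 in Flk1+ MPCs against 4559 (sfPCBs), 768 (PCBs) and 2126 (M+CMs), whereas its other probe, A_55_P2094469, varied by less, between 6661 and 11263. Pdgfra, a marker of the PCB sort, read 9136 in PCBs but 3647 in sfPCBs, below the 7237 of Flk1+ MPCs, and 918 in M+CMs. The cardiac troponin gene Tnnt2 read 150 in Flk1+ MPCs and 3176 in sfPCBs, against 145595 in PCBs and 403180 in M+CMs. Spots well above background made up 73.3% to 76.2% of an array, and 153 negative control spots had median scaled signals of 3.47 to 3.70.

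Among the transcription factors, Foxa2 was lower in every later population than in Flk1+ MPCs. Its probe A_55_P2134236 gave scaled signals of 924 (Flk1+ MPCs), 237 (sfPCBs), 56.9 (PCBs) and 25.3 (M+CMs). The other probe, A_55_P2067533, read 226, 51.2, 18.9 and 3.31 in the same order, the last not detected. Both probes thus gave the same order of populations, with sfPCBs above PCBs. Averaged over the probes, the log2 ratio of PCBs to Flk1+ MPCs was -3.80 (error 0.27), a 14.0-fold lower level. The ratio of sfPCBs to Flk1+ MPCs was -2.05 (error 0.21), or 4.16-fold lower, and that of PCBs to sfPCBs was -1.75 (error 0.28), or 3.36-fold lower. M+CMs were 2.25-fold below PCBs on A_55_P2134236 and at least 1.23-fold below on A_55_P2067533.

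Sox17 was detected in Flk1+ MPCs and sfPCBs and in neither PCBs nor M+CMs. Probe A_55_P2157023 read 757 in Flk1+ MPCs and 322 in sfPCBs, and was not detected in PCBs (4.77) or M+CMs (3.18). Probe A_55_P2094706 read 327 and 95.2, and again was not detected in PCBs (12.1) or M+CMs (13.1). Levels in sfPCBs were 2.84-fold below those in Flk1+ MPCs (log2 ratio -1.51, error 0.21), with -1.78 and -1.23 for the separate probes. PCBs were below Flk1+ MPCs by at least 21.0-fold on A_55_P2094706 and at least 48.7-fold on A_55_P2157023. Relative to sfPCBs the bounds were 6.12-fold and 20.7-fold for the same probes. Between PCBs and M+CMs no ratio was taken, since neither array detected Sox17.

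Sox17 is also made by endothelial cells, and endothelial markers moved with it between the day 5.5 populations. All 4 of the endothelial markers fixed for the check (Pecam1, Cdh5, Tek, Tie1) were detected in sfPCBs and 2 of 4 in PCBs, and their summed scaled signal was 3131 in sfPCBs against 299, 253 and 433 in Flk1+ MPCs, PCBs and M+CMs. The defining marker Cdh5, VE-cadherin, read 36.2 in Flk1+ MPCs, 987 in sfPCBs, and was not detected in PCBs (6.48) or M+CMs (3.31). Sox17 was higher in Flk1+ MPCs than in sfPCBs and Cdh5 the reverse. The part of endothelial cells in the Sox17 difference was not tested, and in sorted bulk samples fewer cells of a type cannot be told apart from less RNA per cell.

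Cer1, the secreted antagonist, had 1 probe, which read 577 in Flk1+ MPCs, 65.9 in sfPCBs and 43.5 in M+CMs and was not detected in PCBs (5.75). Besides 1 Foxa2 probe and Ttr, it was the only member detected in M+CMs. sfPCBs were 8.76-fold below Flk1+ MPCs (log2 ratio -3.13, error 0.21) and PCBs at least 37.1-fold below. M+CMs were 13.3-fold below Flk1+ MPCs (log2 ratio -3.73, error 0.23) and at least 2.80-fold above PCBs.

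Foxa1 was higher at day 5.5 than at day 4.5, the opposite of its relative Foxa2. Its probe read 275 in Flk1+ MPCs, 654 in sfPCBs and 887 in PCBs, and 5.52, not detected, in M+CMs. The PCB signal was 3.22-fold that of Flk1+ MPCs (log2 ratio 1.69, error 0.20), and the sfPCB signal 2.37-fold (log2 ratio 1.25, error 0.20). PCBs and sfPCBs differed by 1.36-fold (log2 ratio 0.44, error 0.20), about as much as 2 errors of the spots, and by less than the 2-fold used here. In M+CMs the level was at least 57.9-fold below that in PCBs and at least 18.0-fold below that in Flk1+ MPCs.

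Afp had the largest ratios above 1 of the 8 genes in both comparisons of day 5.5 with Flk1+ MPCs. The probe is spotted 10 times on the array, and its mean scaled signal was 471 in sfPCBs (SD between spots 0.16 on the log2 scale, n = 10 spots) and 376 in PCBs (SD 0.03, n = 9 spots). No spot was well above background in Flk1+ MPCs (mean 6.41) or in M+CMs (mean 3.72). Relative to Flk1+ MPCs the level was at least 29.6-fold higher for sfPCBs, and for PCBs the bound was 23.6-fold. M+CMs lay at least 24.6-fold under PCBs. sfPCBs and PCBs themselves differed by 1.25-fold (log2 ratio of PCBs to sfPCBs -0.32, error 0.20). Single spots overlapped, from 381 to 554 in sfPCBs and from 361 to 385 in PCBs.

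**Figure D2:**
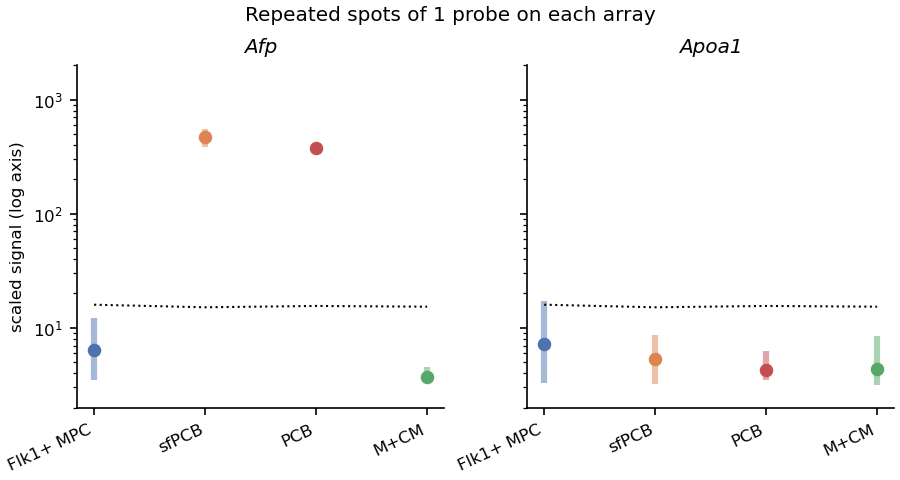
Mean scaled signal (points, log axis) and range from the lowest to the highest repeated spot (bars) of the Afp and Apoa1 probes on each array; the dotted line is the lowest detected signal. Afp lies above the line in sfPCBs (471) and PCBs (376) only, and the Apoa1 means lie below it in all 4 populations.

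Foxa1 and Afp were the members at least 2-fold higher at day 5.5, and Cer1 was among the lower ones, so the 250 bases before their RefSeq transcription starts are shown for reading against the forkhead motif. Windows of 300 bases around the start (250 before, 50 after; GRCm38.p6, RefSeq) were at hand for 6 of the 8 genes, 9 windows in all, with none for Sox17 and Ttr. The forkhead motif TGTTTAC or its reverse complement GTAAACA was in 1 of the 9, that of Foxa1 at position -141 from the start, and is in capitals there. It was in 3.65% of 32851 promoter windows. The sequences are of Foxa1 (chr12:57546112-57546361, minus strand), Afp (chr5:90490464-90490713, plus strand) and Cer1 (chr4:82885152-82885401, minus strand), each 5′ to 3′ on the strand of the gene.
Foxa1: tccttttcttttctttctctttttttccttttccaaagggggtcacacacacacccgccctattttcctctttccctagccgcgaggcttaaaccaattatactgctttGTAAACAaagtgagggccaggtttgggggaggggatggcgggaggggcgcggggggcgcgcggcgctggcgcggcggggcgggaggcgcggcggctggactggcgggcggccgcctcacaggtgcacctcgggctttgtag
Afp: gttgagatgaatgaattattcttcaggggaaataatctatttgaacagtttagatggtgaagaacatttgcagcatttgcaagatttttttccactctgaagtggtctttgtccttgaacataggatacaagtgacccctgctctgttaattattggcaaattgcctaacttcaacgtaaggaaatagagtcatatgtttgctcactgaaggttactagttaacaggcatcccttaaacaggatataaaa
Cer1: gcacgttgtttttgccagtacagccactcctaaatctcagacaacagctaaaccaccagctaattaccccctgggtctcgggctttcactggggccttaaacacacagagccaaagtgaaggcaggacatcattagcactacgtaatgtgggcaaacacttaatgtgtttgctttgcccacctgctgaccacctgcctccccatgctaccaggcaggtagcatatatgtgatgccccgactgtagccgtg

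Other motifs were searched on both strands in the same windows. The forkhead variant TATTTAC was in 0 of the 9 member windows (3.04% of all). The exact palindromic HNF1 motif was in 0 (0.00913% of all). It was in only 3 of the 32851 windows, so its absence from 9 says nothing about looser HNF1 sites. The HNF4 motif CAAAGTCCA was in 0 (0.475% of all). The letters AGATAA, which zinc finger factors such as Gata4 bind, were in 2 of 9, in 1 window each of Foxa2 and Hnf4a, against 11.2% of all windows. These are letter matches only, and the motifs do not overlap where they were found.

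Hnf4a was low where it was detected. Its probe read 26.2 in Flk1+ MPCs, 47.8 in sfPCBs and 18.9 in PCBs, and 11.5, not detected, in M+CMs. The highest level, in sfPCBs, was 1.83-fold above Flk1+ MPCs (log2 ratio 0.87, error 0.31) and 2.54-fold above PCBs (log2 ratio of PCBs to sfPCBs -1.34, error 0.36). PCBs and Flk1+ MPCs differed by 1.39-fold (log2 ratio -0.47, error 0.40), little more than 1 error.

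The serum proteins Ttr and Apoa1 were at or under the detection limit. Ttr read 18.4 (Flk1+ MPCs), 13.6 (sfPCBs), 19.3 (PCBs) and 20.1 (M+CMs), and only the last was called well above background, although the values differ little. Apoa1, with 10 spots, had means of 7.16, 5.28, 4.26 and 4.38 in the same order, against negative control medians of 3.62, 3.70, 3.57 and 3.47. No spot of Apoa1 was well above background on any array. Afp, high in both day 5.5 populations, was thus not accompanied by detected Ttr or Apoa1 there.

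Counted over the 8 genes, 2 differed by 2-fold or more upward between PCBs and Flk1+ MPCs, as 11.5% of 25855 tested names did, and 3 downward (10.3% of names). Hnf4a passed the filter without reaching 2-fold, and Ttr and Apoa1 were not detected in either array. The same 2 genes were higher and the same 3 lower in sfPCBs than in Flk1+ MPCs (12.0% and 10.4% of 25744 names). These comparisons share the Flk1+ MPC array. With normexp, another background correction, Foxa1 fell short of 2-fold in sfPCBs over Flk1+ MPCs (log2 ratio 0.84), leaving 1 member higher. In PCBs against sfPCBs, 0 members were at least 2-fold higher (4.88% of 25232 names) and 4 were lower, Foxa2, Sox17, Cer1 and Hnf4a (6.44%), with Foxa1 and Afp under 2-fold. The count of 4 rests on low signals. With 50 added to each signal only Sox17 stayed past 2-fold (log2 ratio -1.83), and Foxa2 (-0.99), Cer1 (-0.82) and Hnf4a (-0.51) kept their direction at smaller sizes. Without scaling, Hnf4a passed 2-fold in sfPCBs over Flk1+ MPCs (log2 ratio 1.21).

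Toward cardiomyocytes, 6 of the 8 members were tested between M+CMs and PCBs, since Sox17 and Apoa1 were detected in neither array. M+CMs had 2 of these, Foxa1 and Afp, at 0.5 of the PCB level or less (14.4% of 26134 names). Cer1 alone was at 2-fold or more above it (18.5%). Relative to Flk1+ MPCs, 6 of the 8 were tested, since Afp and Apoa1 were detected in neither array. Of these, 4 were lower by that margin, Foxa2, Foxa1, Sox17 and Cer1 (20.3% of 26497 names), and 0 higher (20.4%). With detection required in both arrays, Foxa1, Afp and Cer1 could not be compared between M+CMs and PCBs. Foxa2 was counted in their place, on the 1 probe detected in both (log2 ratio -1.17). Cer1 no longer reached 2-fold in M+CMs over PCBs with an offset of 50 (log2 ratio 0.51) or with normexp (0.56). The split of all names into higher and lower depended on scaling. It was 2983 to 2674 for PCBs over Flk1+ MPCs (3581 to 2004 unscaled), 1232 to 1625 for PCBs over sfPCBs (960 to 2066 unscaled) and 4842 to 3776 for M+CMs over PCBs (3751 to 4809 unscaled).

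**Figure D3:**
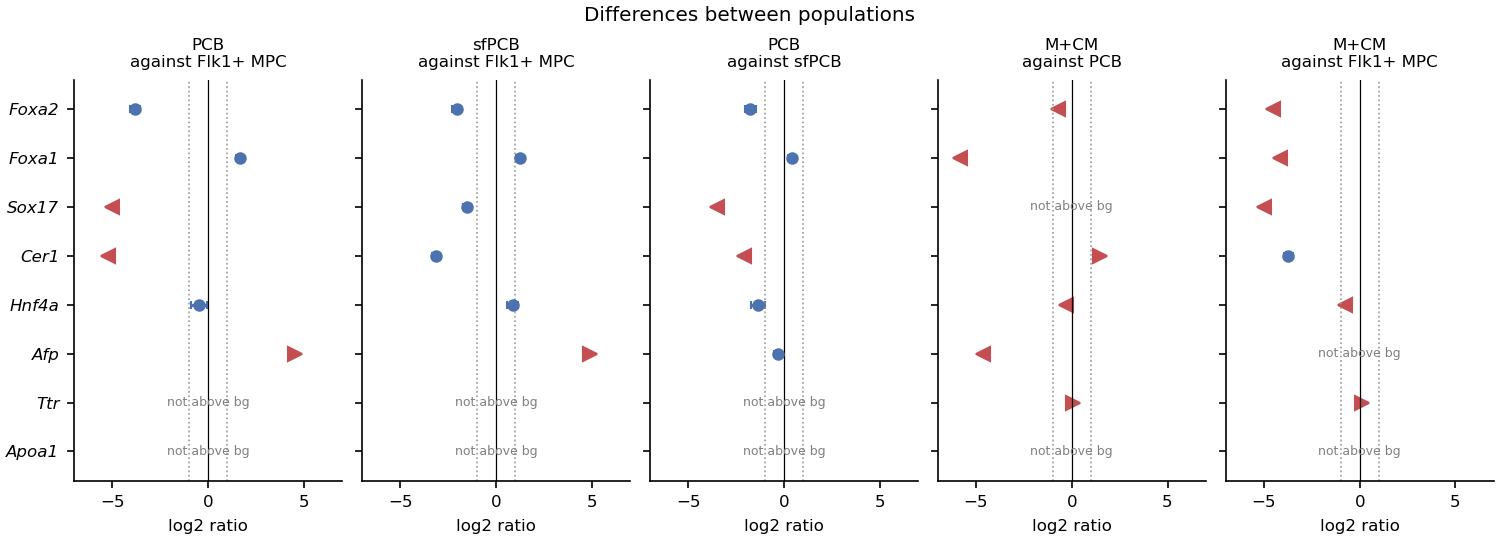
Log2 ratio of each member in the 5 comparisons, first population over second. Blue points are ratios between detected signals with the software's error as bars, red triangles hold an undetected signal set at the floor and point away from 0 (Foxa2 and Sox17 are means of 2 probes), dotted lines mark 2-fold, and genes not detected in either array are written as such; Foxa2, Sox17 and Cer1 lie left of 0 and Foxa1 and Afp right of it in both comparisons of day 5.5 with Flk1+ MPCs.

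The other regulators of endoderm in a list of 16 transcription factors were mostly lower after day 4.5, as Foxa2 was. Of 12 tested between PCBs and Flk1+ MPCs, 8 were at least 2-fold lower and 1 was higher (10.3% and 11.5% of all names). The median log2 ratio was -2.83, against -0.19 over all tested names. In sfPCBs, 7 of 13 were lower and 1 was higher (10.4% and 12.0%). Prox1 was not detected in Flk1+ MPCs and read 54.2, 117 and 457 in sfPCBs, PCBs and M+CMs. Gata6 read 13924, 6023, 16617 and 42458 from Flk1+ MPCs to M+CMs. Sox7 (223 and 413) and Hhex (1081 and 1358) were higher in sfPCBs than in Flk1+ MPCs, by less than 2-fold. The T-box factor Eomes, needed for endoderm and cardiac mesoderm, read 41054 in Flk1+ MPCs and 4554 in sfPCBs with its brighter probe, and 37.8 and 27.6 in PCBs and M+CMs. Goosecoid (Gsc), of the anterior streak, read 19299 in Flk1+ MPCs and 564 in sfPCBs, and was not detected in PCBs or M+CMs. Mixl1, a homeobox factor of the streak, read 4837 in Flk1+ MPCs and 32.6 in sfPCBs and was not detected in PCBs or M+CMs. Otx2, of anterior endoderm and neural tissue, read 41940, 3650, 542 and 112 in the order Flk1+ MPCs, sfPCBs, PCBs and M+CMs. Like Foxa2, Sox17 and Cer1, all of Eomes, Gsc, Mixl1 and Otx2 were lower in PCBs than in sfPCBs. Over the whole list, 7 of 12 tested were at least 2-fold lower in PCBs than in sfPCBs (6.44% of all names). By the same margin, 2 were higher (4.88%).

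Most markers of early mesoderm and of pluripotent cells moved in the same direction as Foxa2, Sox17 and Cer1. Of 5 Flk1+ mesoderm markers, 4 were at least 2-fold lower in PCBs than in Flk1+ MPCs (median log2 ratio -7.23) and 4 in sfPCBs. The shares of all names were 10.3% and 10.4%. The summed scaled signal of the list was 90324 (Flk1+ MPCs), 21829 (sfPCBs), 16592 (PCBs) and 8473 (M+CMs), with 5, 5, 3 and 3 of 5 detected. Mesp1, of early cardiac mesoderm, read 42204 in Flk1+ MPCs and 179 in sfPCBs and was not detected in the other populations, and the same held for the streak gene T (6554 and 82.0). The 4 pluripotent markers, of which 3 were at least 2-fold lower in PCBs, summed to 1755, 1388, 872 and 1066. Pou5f1 (Oct4) read 897, 71.6, 12.9 (not detected) and 18.0, whereas Sox2 was highest in sfPCBs (877, against 167 in Flk1+ MPCs). The 2 Nanog probes went in opposite directions. Probe A_55_P2007699, the one in the sum, read 194, 256, 434 and 906, and A_55_P2007703 read 745, 48.0, 20.7 and 20.2. Nanog is among the 3 lower markers only as the mean ratio of these probes. The part of these cells in the endoderm signals was not tested.

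Among 13 inducers, antagonists and surface proteins, 11 were at least 2-fold lower in PCBs than in Flk1+ MPCs and 0 were higher. Over all tested names, 10.3% were lower and 11.5% higher by that margin. The median log2 ratio of the list was -2.44, against -0.19 over all names. The Wnt antagonist Dkk1 read 28991, 2552, 1160 and 34.4 (Flk1+ MPCs, sfPCBs, PCBs, M+CMs). Cxcr4, a chemokine receptor used to sort definitive endoderm, read 4152, 538, 22.1 and 40.0 in that order. Of the 3 simple epithelial keratins listed, Krt8 and Krt18 differed from these. Krt19 did not, at 9359, 6845, 6774 and 1340.5 in the same order. Krt8 was highest in sfPCBs (34773), with 16120 in Flk1+ MPCs, 7761 in PCBs and 56.1 in M+CMs. Krt18 was 62908, 165442, 31881 and 748 in the order used for Dkk1.

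A list of 10 genes of visceral endoderm uptake and basement membrane held more members that were higher at day 5.5, as Foxa1 and Afp were. In sfPCBs, 6 of 10 were at least 2-fold above Flk1+ MPCs and 0 below (12.0% and 10.4% of all names). The median log2 ratio was 1.56, against -0.22 over all names. In PCBs, 4 were above and 1 below (11.5% and 10.3% of all names, median 0.44). Lrp2, megalin, an endocytic receptor, read 2780 in sfPCBs and 1725 in PCBs, and was low in Flk1+ MPCs (105) and M+CMs (51.4). Dab2, its adaptor, read 279 (Flk1+ MPCs), 2627 (sfPCBs), 1914 (PCBs) and 438 (M+CMs). Thrombomodulin (Thbd), a surface receptor for thrombin, read 97.6, 2730, 1571 and 528. Laminin α1 (Lama1), of basement membrane, was higher in sfPCBs (49855) than in Flk1+ MPCs (14307), PCBs (12212) or M+CMs (468). In M+CMs, 5 of the 10 were at least 2-fold above Flk1+ MPCs (20.4% of all names), so the list was not higher at day 5.5 alone. Lrp2 and Lama1 were below, 2 of 10, near the 20.3% of all names, and the median log2 ratio was 1.08.

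Few secreted proteins of liver and yolk sac passed 2-fold, a share near that of all names. On the array were 15 of the 17 listed, of which 10 were tested between PCBs and Flk1+ MPCs; 0 were at least 2-fold higher and 1, Apoe, was lower (median log2 ratio -0.29), which left 9 of 10 under 2-fold, as were 78.1% of all names. In sfPCBs 8 of 11 were under 2-fold (77.6% of all names). Albumin, the adult relative of Afp, was not detected in any population, at 12.2, 10.3, 4.50 and 8.25. Apoe, the lipoprotein ligand, read 76050 in Flk1+ MPCs, 28187 and 31448 in the day 5.5 sfPCBs and PCBs, and 10213 in M+CMs. Rbp4, which carries retinol, read 2741, 3730, 5018 and 200, and Trf, transferrin, 124, 828, 83.3 and 70.4 with its brighter probe. Apom, a minor apolipoprotein, went from 292 in Flk1+ MPCs to 130, 149 and 82.8.

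**Figure D4:**
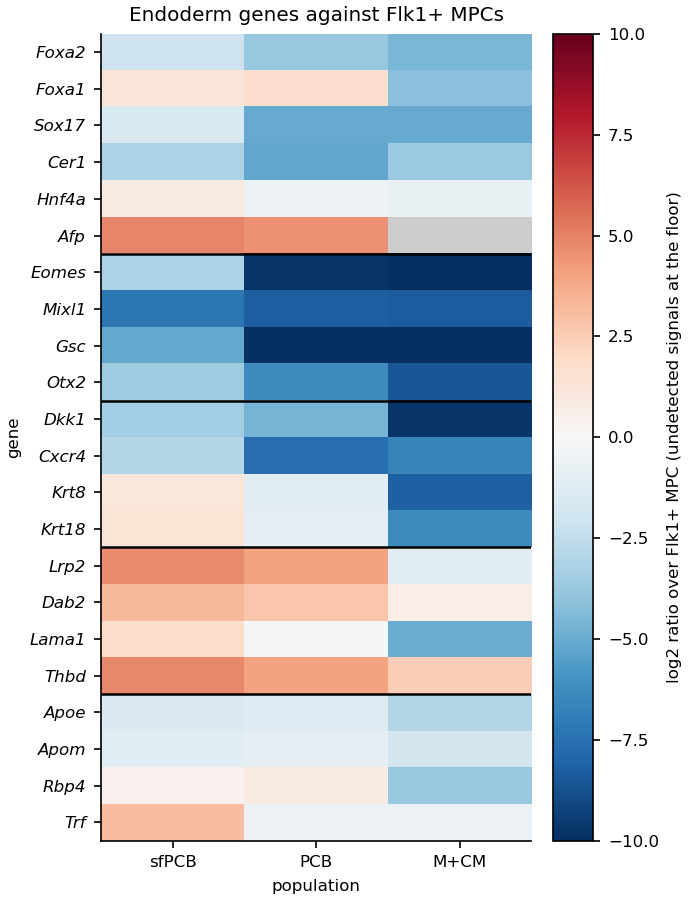
Colours give the log2 ratio of sfPCBs, PCBs and M+CMs over Flk1+ MPCs. Above the black lines are the 6 members detected in a day 5.5 population. Below, between lines, are the 4 genes with the widest range in each list. In order, the lists are transcription factors, inducers and surface proteins, visceral endoderm uptake and basement membrane, and secreted proteins. Grey means detected in neither array, and ratios beyond the ends of the scale take its darkest colours. Eomes, Mixl1, Gsc and Otx2 are lower in all later populations, and Lrp2, Dab2 and Thbd are higher in sfPCBs and PCBs.

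Most stromal markers and some blood markers were, like Foxa1 and Afp, higher at day 5.5 than in Flk1+ MPCs. A list of 7 stromal genes, a check for cells such as the OP9 feeder, had 5 of 7 detected in Flk1+ MPCs and 7 of 7 in each later population. Its summed scaled signal was 294100 in sfPCBs and 152221 in PCBs, against 3984 in Flk1+ MPCs and 25014 in M+CMs. Collagen I (Col1a1) read 1110, 58341, 28386 and 860, while Lum, lumican, read 8782 in sfPCBs and 30.2 in PCBs and was not detected in Flk1+ MPCs. Unlike Foxa1 and Afp, 5 of the 7 were at least 2-fold above Flk1+ MPCs in M+CMs (20.4% of all names), and 1 was below. Also unlike them, 5 of 7 were at least 2-fold lower in PCBs than in sfPCBs (6.44%). The 5 blood markers summed to 890, 3877, 3128 and 221, most of it from the embryonic globin Hbb-bh1 (182, 2781, 2525 and 89.9). In PCBs over Flk1+ MPCs, 2 of the 5 were at least 2-fold higher (11.5% of all names). They were Hbb-bh1 and the embryonic globin Hba-x (465 in PCBs, not detected in Flk1+ MPCs). Tal1, a regulator of early blood, was 10.9-fold lower (612 against 56.2), and Gata1 and Itga2b were under 2-fold. The part of stromal or blood cells in the Foxa1 and Afp signals was not tested. All 4 arrays lay on 1 slide. Each population had 1 array, so array and population cannot be told apart.

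The nearest profiles over the 4 populations were found among 16984 named genes, as the smallest distance between centred log2 signals with undetected values at the floor. With 4 points each, these are descriptions. Afp was nearest to Cdkn2a (distance 0.13), which read 893 in sfPCBs and 672 in PCBs against 26.7 and 26.5 in the others, and to Fgf7 (0.24). Foxa1 was nearest to the homeobox gene Dlx2 (0.34). Foxa2 was nearest to Ajap1 (0.41) and Lfng (0.52), Sox17 to Vstm2b (0.35) and Fgd5 (0.46), and Cer1 to Lmo1 (0.47) and Rab26 (0.64). Hnf4a, whose range was narrow, was nearest to Marchf10 (0.14) and Entpd2 (0.15).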

How the data were processed

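Total RNA of 4 sorted mouse populations was labelled with Cy3 and hybridized to 1-colour Agilent arrays, 1 array per population on 1 slide. As deposited, the arrays hold intensities per spot, made by the authors with Agilent Feature Extraction 11.5.1.1 and not normalized between arrays. The authors' deposited log2 values matched the log2 of the processed signal with no scaling, within 0.01, for 99.7% of probes, with medians of 7.40 (sfPCB), 7.19 (PCB), 6.88 (Flk1+ MPC) and 7.16 (M+CM). The array design is annotated on mm9, and spots carry identifiers only. Symbols came from RefSeq (GRCm38.p6), with 20498 of 20845 curated mRNA names matched.

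Control spots and 87 to 144 outlier or manually flagged spots per array were left out, and no spot was saturated. Arrays were scaled to a common 75th percentile (factors 0.867 to 1.12), repeated spots of a probe were averaged as log2 signals, and the probes of a name as log2 ratios, where detected in at least 1 of the arrays compared. Undetected signals were raised to the lowest detected signal of their array. With 1 array per population no test was run; the number of arrays limits the precision. Names at least 2-fold different were counted. The counting was tested on simulated data. All 8 members are named, with the 4 genes of widest range per list and the 2 nearest profiles of each member detected on at least 2 arrays, of which 1 is not reported here. The members and lists were chosen with earlier results of these data known. As the files hold no mean signal, the normexp alternative (limma 3.58.1, R 4.3.3, offset of 50) used the median signal. Python 3.11.15 with numpy 2.4.6, pandas 2.3.3 and matplotlib 3.10.9 was used.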

Additional observations from a re-analysis of the deposited data

How the results depend on the processing

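The counts of members at least 2-fold different were 5 for PCBs against Flk1+ MPCs, 5 for sfPCBs against Flk1+ MPCs, 4 for PCBs against sfPCBs, 3 for M+CMs against PCBs and 4 for M+CMs against Flk1+ MPCs. Each stayed within 1.5 times that value under quantile normalization, no scaling, the percentile taken over probes detected on all arrays and no filter or floor. No spot was saturated, so leaving such spots out changed nothing, and the authors' log2 table repeats the unscaled signal. With detection required in both arrays, the count was 2 for PCBs against Flk1+ MPCs, 2 for PCBs against sfPCBs, 1 for M+CMs against PCBs and 2 for M+CMs against Flk1+ MPCs, since undetected signals drop out. The 1 is Foxa2, which was not among the 3. For PCBs against sfPCBs, normexp gave 1, an offset of 50 gave 1 and a 4-fold limit gave 2. That limit gave 3 for sfPCBs against Flk1+ MPCs. Of 213 ratios of members under the alternatives other than those 2, 142 moved by less than the spot error, 71 by more and 0 called ratios changed direction. For a bound, that error includes the wider one of undetected spots. For Sox17 probe A_55_P2157023 it was 0.98 in PCBs, not detected, against 0.14 in Flk1+ MPCs. Bounds could thus move further than other ratios without being counted. Leaving out a replicate was not possible. No paired analysis was possible because each population had 1 array. Without scaling, the median log2 ratio of all names moved from -0.22 to 0.11 for sfPCBs against Flk1+ MPCs, and 4325 names were at least 2-fold higher and 1392 lower, in place of 3084 and 2675. Low signals limit what can be said of Hnf4a, and signals at or near the background limit Ttr and Apoa1.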
